A study of Mus musculus with 4 samples.

Results

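Expression of 53 developmental transcription factors outside the Hox clusters was examined in mouse embryonic stem (ES) cells that express the leukaemia-associated fusion Nup98-HoxA9. The 53 genes belong to families that Polycomb proteins commonly hold silent in ES cells, namely the Pax, LIM homeodomain, NK, Dlx, engrailed, sine oculis-type (Six2 and Six3), Iroquois, paired-like, T-box, forkhead, basic helix-loop-helix (bHLH) and Sox factors. They were found on the array through the RefSeq transcript that each probe is annotated with, which gave 68 probes for all 53 genes, among 20257 genes named in this way. In total 40 of the genes had 1 probe, 11 had 2 probes and 2 had 3 probes, and where a gene had several probes, the one brightest on average over the arrays was used.

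The study hybridised total RNA of 4 ES lines to one-colour Agilent SurePrint G3 Mouse GE arrays, with 1 array per line. Parental ES cells were the EB3 line, from which the other lines were derived. Clones #1 and #9 were independent, hygromycin-selected single clones that stably carry FLAG-tagged Nup98-HoxA9 on a Tol2 transposon, and this fusion joins the N-terminal FG repeats of human Nup98 to the C-terminal homeodomain region of HoxA9. HoxA9-Ct ES was likewise a single stable clone, which expresses the HoxA9 part without Nup98. Each line was grown on gelatin in medium with serum and LIF, which keeps ES cells undifferentiated. The clones were the only replicated group (n = 2), so that every p-value below rests on the spread between them, and parental ES and HoxA9-Ct ES were assumed to vary like the clones. These are bulk samples, in which fewer cells that express a gene and less RNA per cell cannot be told apart.

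Polycomb repressive complex 2 places the mark H3K27me3 on histone H3, and Polycomb repressive complex 1 binds marked nucleosomes and compacts them. In ES cells both complexes occupy CpG-rich promoters of genes that specify later lineages, among them the Hox clusters and most of the factor families described here, which stay silent or nearly so until differentiation. This silent state is the best-known form of facultative heterochromatin, the chromatin type that the study places Nup98-HoxA9 next to. The comparison therefore asks whether genes of this class outside Hox were also expressed in cells with the fusion. Only RNA was measured in these samples, and chromatin was not.

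RefSeq promoters of build GRCm38.p6 (300 bases, of which 250 lie before the start of transcription) were at hand for 38 of the 53 genes, with 43 promoters in all. Their median number of CpG dinucleotides was 23, and the median over all 32851 mouse promoters of the same length was 7. At least 15 CpG were found in 69.8% of the factor promoters and in 34.6% of all promoters. The median ratio of observed to expected CpG was 0.79 in the factor promoters and 0.38 in all promoters. The 250 bases before the start are given here for Pax6, whose signal fell below the background limit in both clones, and for Lhx2, the only factor newly above background in both. In these sequences CpG dinucleotides are in capitals. The Pax6 promoters lie on the plus strand at chr2:105668646-105668895 and chr2:105682213-105682462, and those of Lhx2 on the plus strand at chr2:38339031-38339280 and chr2:38351058-38351307.
Pax6, upstream promoter: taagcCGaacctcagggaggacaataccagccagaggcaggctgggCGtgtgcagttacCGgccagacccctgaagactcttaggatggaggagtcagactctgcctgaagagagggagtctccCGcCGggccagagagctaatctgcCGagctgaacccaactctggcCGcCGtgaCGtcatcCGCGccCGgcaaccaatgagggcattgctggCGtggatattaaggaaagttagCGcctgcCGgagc
Pax6, downstream promoter: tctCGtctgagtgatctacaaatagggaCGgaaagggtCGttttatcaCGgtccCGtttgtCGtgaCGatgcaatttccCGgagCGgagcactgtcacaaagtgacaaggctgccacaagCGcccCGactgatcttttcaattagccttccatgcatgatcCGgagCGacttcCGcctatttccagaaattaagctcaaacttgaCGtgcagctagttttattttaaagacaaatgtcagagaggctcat
Lhx2, upstream promoter: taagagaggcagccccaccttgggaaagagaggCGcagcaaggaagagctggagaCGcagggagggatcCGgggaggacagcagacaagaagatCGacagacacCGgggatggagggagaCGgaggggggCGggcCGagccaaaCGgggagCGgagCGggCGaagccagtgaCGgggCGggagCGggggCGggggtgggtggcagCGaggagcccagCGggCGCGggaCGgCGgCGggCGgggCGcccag
Lhx2, downstream promoter: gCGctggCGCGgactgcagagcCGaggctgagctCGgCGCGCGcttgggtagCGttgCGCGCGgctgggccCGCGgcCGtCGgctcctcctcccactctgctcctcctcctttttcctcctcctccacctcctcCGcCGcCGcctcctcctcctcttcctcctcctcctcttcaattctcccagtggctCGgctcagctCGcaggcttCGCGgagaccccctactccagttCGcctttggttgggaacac
The Pax6 sequences hold 15 CpG each, and those of Lhx2 hold 25 and 24. A pair of letter strings of the kind that HOX proteins bind, TGATTTAT and TTTATGGC, which share the letters TTTAT, were searched on both strands of the 300 bases. Neither string was present in any of the 43 factor promoters, and they were present in 0.977% and 0.654% of all promoters. Of 24 Hox promoters, 0 held TGATTTAT and 1 held TTTATGGC. Strings this rare would mostly be absent from 43 promoters in any case, so no conclusion is drawn from their absence.

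Signals are given as log2 of the processed spot intensity relative to the 75th percentile of each array, so that a difference of 1 is a 2-fold difference, and a negative value lies below that percentile. A probe counted as detected in a line when Feature Extraction, the software that reads the scanned images, marked it as well above background. The lowest signal that carried this mark was -4.28 for parental ES, -4.23 for HoxA9-Ct ES, -4.43 for clone #1 and -4.62 for clone #9. Where a gene was detected in 1 of the lines compared and not in the other, the fold change is a lower bound, taken against this limit or the gene's own signal, whichever was higher. With 1 array per line, the precision is limited by the number of arrays.

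Most of the 53 factors were silent in every line. Parental ES had 14 detected factors (26.4%), HoxA9-Ct ES and clone #1 13 each (24.5%) and clone #9 18 (34.0%). Over all 20257 genes the detected share lay between 64.1% and 67.97%. No line detected 34 of the factors (64.2%, against 30.4% of all genes), every line detected 11, and 8 were detected in 1 to 3 lines. Of the 68 probes, 47 were not well above background on any array. The T-box genes Tbx2, Tbx4, Tbx5, Tbx15 and Tbx20, which pattern limbs, heart and other mesoderm, were detected in no line. The same held for the bHLH factors Hand2, Olig2, Neurog2 and Sim1, regulators of heart, oligodendrocyte, neuronal and hypothalamic development.

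**Figure D1:**
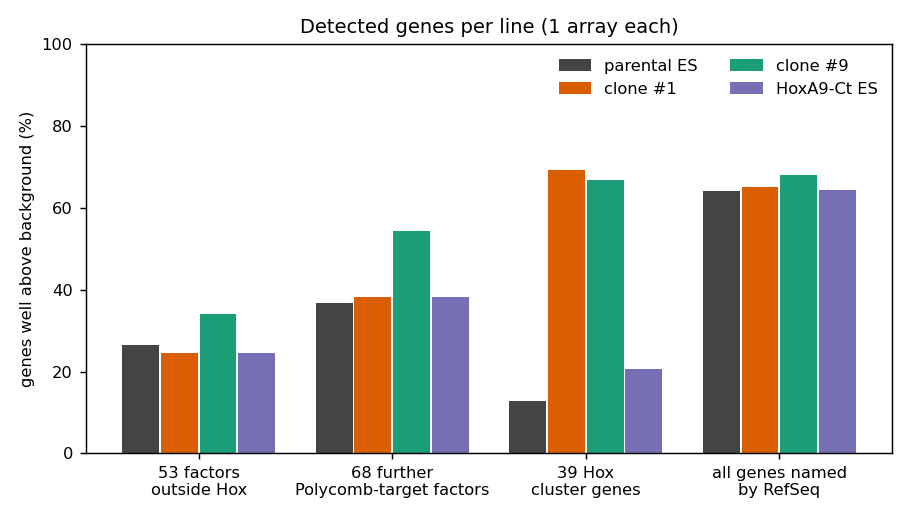
Percentage of genes well above background (y axis) in each of the 4 lines (coloured bars, 1 array each) for the 53 factors outside Hox, 68 further Polycomb-target factors, 39 Hox cluster genes and all 20257 genes named by RefSeq. The factors outside Hox stayed between 24.5% and 34.0% in every line, while detected Hox genes went from 5 of 39 in parental ES to 27 and 26 in the clones.

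The Hox clusters, which hold Polycomb targets too, were read on the same arrays. Of 39 Hox genes, 5 were detected in parental ES and 8 in HoxA9-Ct ES, but 27 in clone #1 and 26 in clone #9. Their median log2 ratio to parental ES was 3.54 and 2.39 for clones #1 and #9, and 0.05 for HoxA9-Ct ES. For the 53 factors outside Hox the same medians were -0.12, -0.30 and 0.06, beside -0.08, -0.13 and 0.05 over all genes. Most of these factors were below background, where a ratio compares background signals. For the 34 factors detected in no line the medians were -0.12, -0.32 and 0.06, beside -0.12, -0.32 and 0.06 for all such genes, and for the 11 factors detected in every line they were -0.21, -0.21 and -0.04, beside -0.01, -0.06 and -0.00046. More than 2-fold higher than parental ES in both clones, with both detected, were 24 of the 39 Hox genes and 0 of the 53 factors, against 1.71% of all genes. Newly detected in both clones were 21 Hox genes and 1 factor, Lhx2, against 1.78% of all genes. More than 2-fold lower in both clones, with only parental ES required to be detected, were 3 factors, Alx4, En2 and Pax6, against 0.938% of all genes. Pax6 was detected in neither clone, and its lower bounds were 1.82-fold in clone #1 and 2.07-fold in clone #9.

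**Figure D2:**
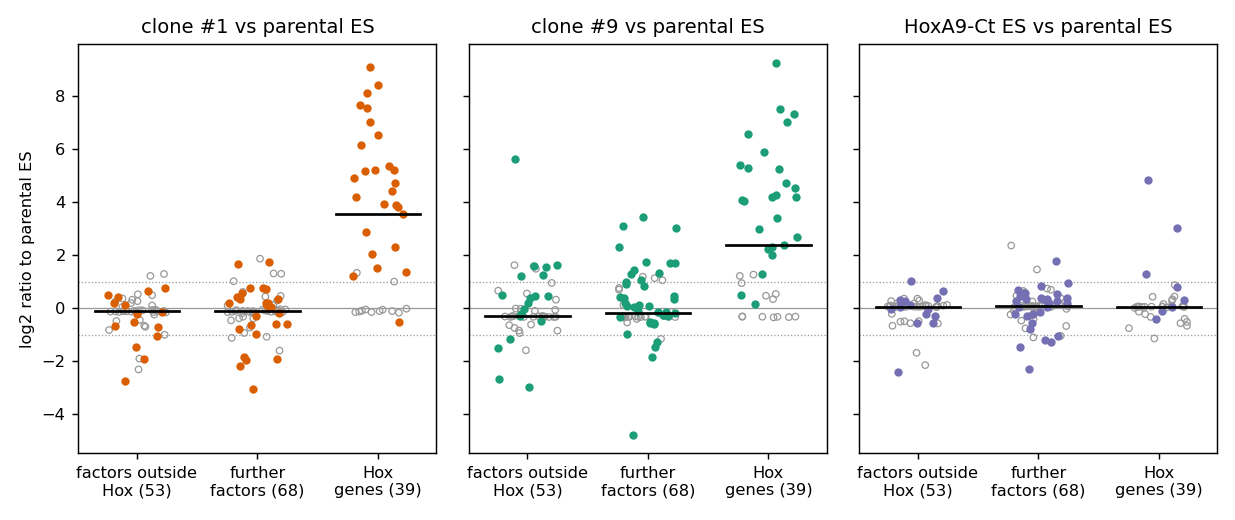
Log2 ratio to parental ES (y axis) of each gene in the clones and in HoxA9-Ct ES, for the 53 factors outside Hox, 68 further Polycomb-target factors and 39 Hox genes. Filled points were detected in that line or in parental ES, open points in neither, black lines are medians and dotted lines mark 2-fold. The medians of the factors outside Hox were -0.12, -0.30 and 0.06, and those of the Hox genes 3.54, 2.39 and 0.05.

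Across all probes, limma, which fits a linear model to each probe (Benjamini-Hochberg adjusted p under 0.05), called 1 of the 53 factors, Dlx5, higher in the Nup98-HoxA9 clones than in parental ES, and 1.15% of all genes were called so. It called 3 lower, Alx4, Pax6 and Tbx4, against 0.553% of all genes. At an unadjusted p under 0.05, 2 factors were higher (4.37% of all genes) and 6 lower (2.36% of all genes). In HoxA9-Ct ES against parental ES, limma called 0 factors higher (0.222% of all genes), and 1 lower, Alx4 (0.118% of all genes). At an unadjusted p under 0.05 these were 0 higher (1.77% of all genes) and 3 lower (1.17% of all genes). Between the Nup98-HoxA9 clones and HoxA9-Ct ES it called Dlx5 higher (0.953% of all genes) and Pax6 lower (0.573% of all genes). The clones share the parental array with HoxA9-Ct ES in these comparisons. More than 2-fold higher than parental ES in HoxA9-Ct ES was 1 factor, Sox1 (1.21% of all genes), and more than 2-fold lower was also 1, Alx4 (0.736% of all genes). The fit has 1 residual degree of freedom and takes 1 common spread (SD 0.45 on the log2 scale) for all probes, and none of these calls held under every alternative setting. When probes dim on all arrays were left out of the fit, limma called no factor and no other probe in the clones, with 0 factors higher and 3 lower than parental ES at an unadjusted p under 0.05.

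Several of these calls came from 1 region of the arrays. Probes with 1 spot in rows 337 to 384 of the 384 spot rows made up 12.3% of all single-spot probes, but 79.2% of the 24 probes that were over 10-fold brighter in parental ES than in each other line. For clone #9 alone the share was 42.9% of 42 probes, for clone #1 63.0% of 54 and for HoxA9-Ct ES 43.5% of 23. Dlx5, Alx4, Tbx4, Six2 and Nkx2-2 were read in these rows. Without these probes limma called 0 factors higher in the clones (3 at an unadjusted p under 0.05) and 1, Pax6, lower.

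Among the Pax genes, paired-domain factors that direct neural, eye, muscle and kidney development, 2 of 8 were detected in parental ES and 6 in no line. Pax6, the master regulator of eye and forebrain development, gave a log2 signal of -3.57 in parental ES and -3.45 in HoxA9-Ct ES, both detected, and of -6.33 in clone #1 and -6.55 in clone #9, neither detected. Both clones thus lay below both lines without the fusion, and the 2 spots of this probe differed by an SD of at most 0.09 on any array. The fall was at least 1.94-fold against parental ES and at least 2.10-fold against HoxA9-Ct ES, with limma adjusted p-values of 6.46e-05 and 2.70e-05. Pax6 was just above the detection limit in the lines that expressed it, and its limma call against parental ES was lost when signals were floored at that limit (adjusted p = 0.364, Benjamini-Hochberg, with values from 1.71e-05 to 1.0 over the alternatives). Its other probe was not detected in any line. Pax8, a factor of thyroid and kidney development, was detected in every line, at -0.73 in parental ES, -1.78 and -0.95 in clones #1 and #9, and -0.95 in HoxA9-Ct ES. Clone #9 and HoxA9-Ct ES gave the same value to the digits shown, and only clone #1 lay more than 2-fold below parental ES, with no call by limma (adjusted p = 1.0).

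The LIM homeodomain factors, which specify neurons and parts of the forebrain and limb, had no detected gene in parental ES or HoxA9-Ct ES among 6, 1 in clone #1 and 2 in clone #9. Lhx2, needed for forebrain, eye and limb development, gave -3.97 in parental ES and -4.63 in HoxA9-Ct ES, not detected, and -3.48 in clone #1 and -2.35 in clone #9, detected. Clone #1 exceeded parental ES by at least 1.40-fold and clone #9 by at least 3.07-fold, and limma did not call it against parental ES (adjusted p = 0.877) or HoxA9-Ct ES (adjusted p = 0.105). Lhx5, a factor of forebrain and cerebellar neurons, was detected in clone #9 only, at -3.47, with -4.70 in parental ES, -4.21 in clone #1 and -4.34 in HoxA9-Ct ES. That is at least 1.75-fold above parental ES. Lhx1, Lhx8, Lhx9 and Isl1 were detected in no line.

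Of the 12 NK, Dlx and engrailed homeodomain genes, 7 were detected in no line. En2, an engrailed factor of the midbrain and hindbrain boundary, was the member of this group with the best-measured signal, since its probe has 10 spots on each array. Its mean log2 signal was 0.98 ± 0.096 in parental ES and 1.03 ± 0.096 in HoxA9-Ct ES, against -0.50 ± 0.092 in clone #1 and -0.18 ± 0.079 in clone #9 (SD of 10 spots on 1 array each, which is technical). The spots of the clones, from -0.68 to -0.05, did not overlap with those of the lines without the fusion, from 0.81 to 1.20. En2 was 0.357 times its parental level in clone #1, 0.447 times in clone #9 and 1.03 times in HoxA9-Ct ES. limma did not call the difference of -1.32 (SE 0.56, adjusted p = 0.433), although it did in 3 of the alternatives, where the adjusted p ranged from 0.000471 to 0.603. The other engrailed gene, En1, also has a probe with 10 spots and was not detected in any line.

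**Figure D3:**
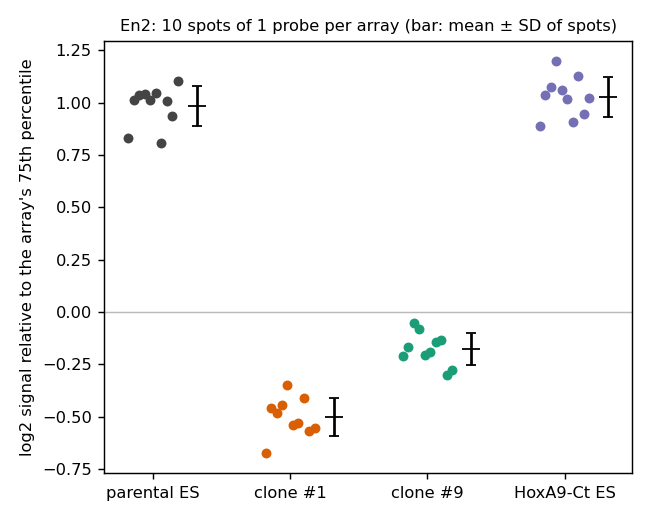
Log2 signal of En2 relative to the 75th percentile of each array (y axis) at the 10 spots of its probe in each of the 4 lines, with the mean and SD of the spots as a bar. The spots of clone #1 and clone #9 lie between -0.68 and -0.05, below all spots of parental ES and HoxA9-Ct ES, which lie between 0.81 and 1.20.

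Dlx5, a distal-less factor of branchial arch, bone and forebrain development, gave -6.18 in parental ES and -5.89 in HoxA9-Ct ES, with -4.96 in clone #1 and -0.54 in clone #9. It was detected in clone #9 alone, where it was at least 13.3-fold above parental ES and at least 14.8-fold above clone #1. limma called the mean of the clones (adjusted p = 3.43e-07 against parental ES and 7.13e-06 against HoxA9-Ct ES), but the rise rested on 1 spot on 1 array. That spot lies in row 351, within the rows described above. Without clone #9 the log2 ratio was 1.22 between signals that were both not detected. Dlx6, its neighbour on the chromosome, was detected in no line, and Dlx1 and Dlx2 were not detected either. Nkx2-9, a factor of the ventral neural tube, was detected in every line, at -0.98 in parental ES, -1.63 and -2.50 in clones #1 and #9, and -1.53 in HoxA9-Ct ES. All 3 transgenic lines lay below parental ES, and limma made no call in the clones (adjusted p = 0.797). Nkx2-5, a cardiac factor, was detected at -3.71 in parental ES, -3.52 in clone #9 and -3.31 in HoxA9-Ct ES and not in clone #1 (-4.25). Nkx2-2 was detected in all lines and moved by no more than 0.28 on the log2 scale.

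The sine oculis-type and Iroquois genes pattern the neural plate, head placodes, heart and limb. Of 7, clone #9 had 4 detected and each other line had 2. Irx2 was detected in every line, at -3.27 in parental ES and -3.56 in HoxA9-Ct ES, with -2.49 in clone #1 and -1.70 in clone #9. It was 1.71 times its parental level in clone #1 and 2.98 times in clone #9, and limma called it neither against parental ES (adjusted p = 0.646) nor against HoxA9-Ct ES (adjusted p = 0.270). The clones were the higher lines for Irx2, but its other probe was not detected in any line. Irx3, which acts in neural tube and limb, was detected only in clone #9, at -3.77 against -5.33 in parental ES, -4.81 in clone #1 and -5.83 in HoxA9-Ct ES. This is at least 1.42-fold above parental ES. Irx1 was likewise detected only in clone #9, at -3.80 against -4.27, -4.76 and -4.79 in parental ES, clone #1 and HoxA9-Ct ES. Irx4 was detected in all lines between -3.53 and -2.89. Six2, Six3 and Irx5 were detected in no line.

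The 3 paired-like genes act in craniofacial mesenchyme and somites. Alx4 was detected in every line, at -1.33 in parental ES, -3.25 and -4.02 in clones #1 and #9, and -3.73 in HoxA9-Ct ES. Parental ES stood apart from all 3 transgenic lines, and HoxA9-Ct ES lay between the clones. limma called Alx4 lower than parental ES in the clones (log2 difference -2.31, SE 0.56, adjusted p = 0.00433) and in HoxA9-Ct ES (-2.41, SE 0.64, adjusted p = 0.045), with 0.10 between the clones and HoxA9-Ct ES. Its only probe has 1 spot, in row 349, within the rows described above, and the high value was that of the parental array. Alx4 was 0.263 and 0.154 times its parental level in clones #1 and #9 and 0.188 times in HoxA9-Ct ES. It was therefore not among the probes past 10-fold that were counted there. Whether the position of the spot bears on its parental value was not tested. Uncx was detected in parental ES and both clones, between -3.97 and -3.83, and not in HoxA9-Ct ES (-4.41), and Alx1 was detected in no line.

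Among the T-box genes limma called Tbx4, a factor of hindlimb development, lower in the clones (adjusted p = 0.035). It gave -4.16 in parental ES and -6.31 in HoxA9-Ct ES, with -6.47 in clone #1 and -5.75 in clone #9, and it was not well above background on any array, so no fold is given. Its spot also lies in the last rows (row 359).

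Of the 5 forkhead genes, Foxl2 and Foxa1 were detected in every line, and Foxc1, Foxc2 and Foxf1 in none. Foxl2, a factor of ovarian granulosa cells and eyelids, gave a log2 signal of 6.26 in parental ES, 6.05 and 5.78 in clones #1 and #9, and 6.21 in HoxA9-Ct ES. Its other probe was detected in every line too, but between -3.54 and -2.99, so that the level depends on the probe, and whether the brighter probe reads Foxl2 alone was not tested. Neither probe differed by 2-fold between lines. Foxa1, a pioneer factor of endoderm, gave -3.27 in parental ES and -3.31 in HoxA9-Ct ES, with -3.98 in clone #1 and -2.04 in clone #9. The clones lay on opposite sides of parental ES, with clone #9 2.35 times and clone #1 0.611 times its level. Of the 3 Sox genes, Sox1, an early neural factor, gave -1.45 in parental ES, -0.80 and -0.96 in clones #1 and #9, and -0.44 in HoxA9-Ct ES. HoxA9-Ct ES was 2.01 times parental ES, but at the other Sox1 probe, also detected in every line, the same log2 ratio was 0.09 and those of the clones were -0.08 and -0.46. Sox10 was detected in every line between -3.29 and -2.87. Sox9, a factor of cartilage, was detected in none at a probe with 10 spots.

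**Figure D4:**
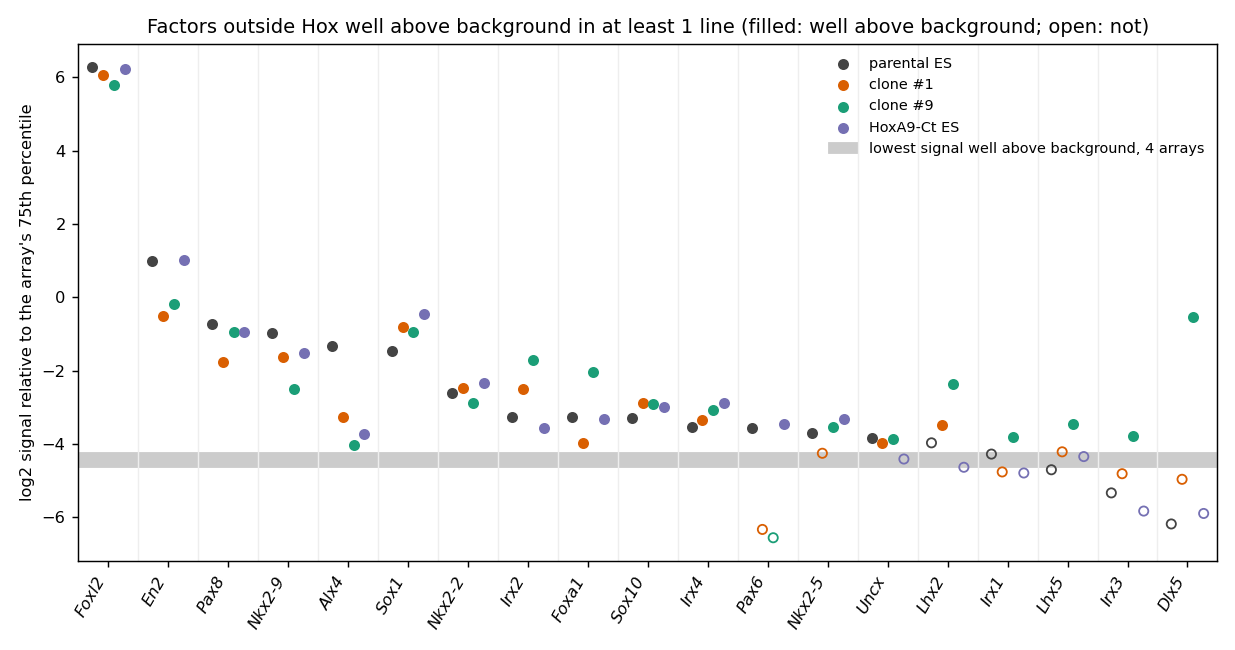
Log2 signal relative to the array's 75th percentile (y axis) of the 19 factors detected in at least 1 line, ordered by their parental level, with filled points where the probe was well above background and open points where it was not. Pax6 falls below the grey band of detection limits in both clones, En2 is lower in both clones, and Dlx5, Irx1, Irx3 and Lhx5 are filled in clone #9 alone.

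The clones were not alike for these genes. Detected in clone #9 and not in clone #1 were 5 factors, Nkx2-5, Lhx5, Dlx5, Irx1 and Irx3, and the reverse held for 0. Of all genes, 3.66% and 0.726% were detected in this way. Of the 18 factors detected in either clone, clone #9 was higher by over 0.5 on the log2 scale for 9 and clone #1 for 2, and over all genes detected in either clone these shares were 15.1% and 5.07%. Taken alone, clone #9 had 6 factors detected and measured at over 2-fold above parental ES, against 6.55% of all genes, and clone #1 had 0, against 2.36% of all genes. Those in clone #9 were Dlx5, Lhx2, Irx2, Irx3, Lhx5 and Foxa1, of which Irx3 and Lhx5 had lower bounds under 2-fold. The difference between the clones was not tested, since each is 1 array.

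**Figure D5:**
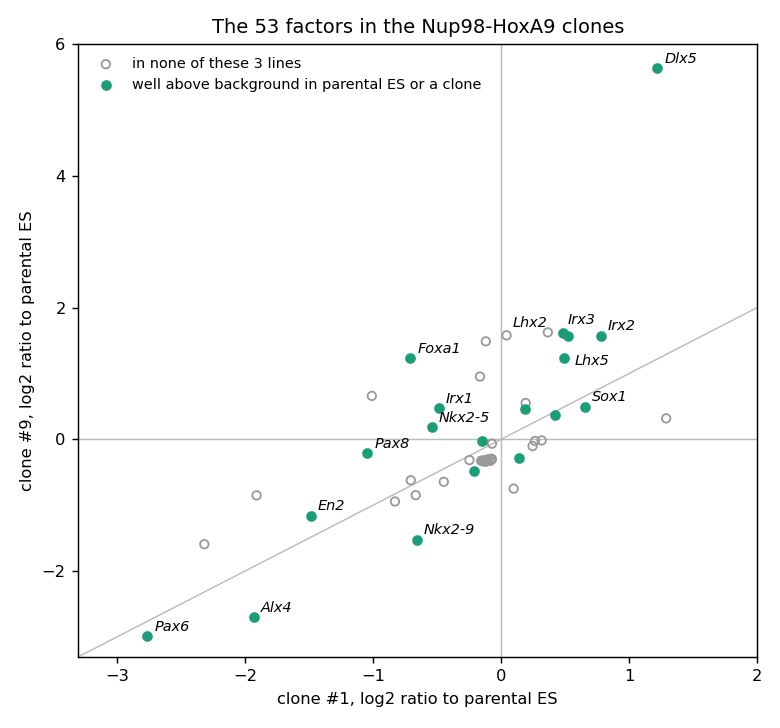
Log2 ratio to parental ES in clone #1 (x axis) and clone #9 (y axis) of the 53 factors, filled where the gene was detected in parental ES or a clone, with the diagonal marking equal ratios. Pax6, Alx4 and En2 are lower in both clones, and the only point above 1 in both is Dlx5, at 5.63 in clone #9 and 1.22 in clone #1, where it was not detected.

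Clone #9 also stood apart in other ways, whose part in these values was not tested. It had the largest share of spots well above background (53.01%, against 49.9% to 50.6% in the other lines). Genes on chromosome 15 detected in all lines had a median log2 ratio of 0.41 for clone #9, against 0.02 for clone #1 and 0.03 for HoxA9-Ct ES, and Sox10 is the only one of the 53 factors on that chromosome. Of 6 fibroblast markers, Col1a1 and Thy1 were detected in every line, Col1a2 in both clones, and Dcn, Lum and Postn in no line. The summed signal of the list was 17.4 in clone #9 and 7.57 to 10.5 in the other lines, in multiples of the 75th percentile, and most of it came from Thy1. Col1a1 was at -1.66 in clone #9 and between -3.77 and -2.97 in the other lines. The summed neural markers ranged from 36.6 to 52.97 with 7 of 10 detected in each line. The summed mesoderm and streak markers ranged from 8.64 to 11.9 with 4 or 5 of 10 detected. Most of the neural sum came from Stmn2, and most of the other from Kdr. Map2 was the 1 neural marker more than 2-fold lower in both clones (0.938% of all genes), and 0 were higher. Map2 gave -2.80 in parental ES, -3.83 in clone #1, -4.48 in clone #9 (not detected) and -3.69 in HoxA9-Ct ES. The 10 pluripotency markers were detected in every line, with summed signals from 1206 to 1359, which fits the label of ES cells. Of 13 primitive endoderm markers, parental ES had 12 detected, each clone 13 and HoxA9-Ct ES 10, and against parental ES their median log2 ratio was -0.80 in HoxA9-Ct ES, while the clones gave 1.36 (#1) and 1.65 (#9). Pdgfra was not detected in parental ES or HoxA9-Ct ES, nor were Sox17 and Dab2 in HoxA9-Ct ES. Both clones passed 2-fold above parental ES for 8 of the 13 markers (1.71% of all genes), and 2-fold below for 0 (0.938%). For HoxA9-Ct ES these counts were 0 above (1.21%) and 6 below (0.736%). The summed signals were 202 in parental ES, 201 and 234 in the clones and 189 in HoxA9-Ct ES. Most of each sum came from Sparc, with log2 ratios of -0.06 (#1), 0.23 (#9) and 0.09 (HoxA9-Ct ES), so the sums say little about the other markers. Limma called 3 of the 13 markers higher in the clones than in parental ES, Gata6, Sox17 and Pdgfra (1.15% of all genes). It called 7 higher in the clones than in HoxA9-Ct ES (0.953% of all genes). The part of these markers in the differences of Pax6 and En2 was not tested.

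A list of 68 further Polycomb-target factors, such as the Pitx, Neurod and Tlx genes, was read in the same way. Clone #9 again had the most detected genes, 37, against 25 in parental ES and 26 each in clone #1 and HoxA9-Ct ES. Their median log2 ratios were -0.11, -0.18 and 0.07, beside 3.54, 2.39 and 0.05 for the Hox genes. limma called 2 of the 68 higher in the clones than in parental ES, Pitx1 and Tlx2, against 1.15% of all genes. It called 2 lower, Neurod1 and Wt1, against 0.553% of all genes. Tlx2, a factor of enteric neurons and mesoderm, gave -4.0 in parental ES and -3.67 in HoxA9-Ct ES, with -2.25 in clone #1 and -0.54 in clone #9, all detected (adjusted p = 0.001). Tlx2 was the only one of the 68 past 2-fold higher in both clones, against 1.71% of all genes. Past 2-fold lower in both clones, with only parental ES required to be detected, were 3, against 0.938% of all genes. Newly detected in both clones were 2, against 1.78% of all genes. In HoxA9-Ct ES 1 was past 2-fold higher (1.21% of all genes) and 5 were past 2-fold lower (0.736% of all genes). Pitx1, a hindlimb factor, was detected in clone #9 alone (-3.42). Of 30 genes that encode Polycomb subunits, 28 were detected in each line, the median log2 ratios were -0.04, -0.02 and -0.01, and limma called 0 of them in any of the 3 comparisons (at an unadjusted p under 0.05, 2 in the clones and 0 in HoxA9-Ct ES against parental ES and 2 between the clones and HoxA9-Ct ES).

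The 11 factors detected in every line were mostly dim, with a median signal of -1.45 in parental ES, which 21.9% of all detected genes lay below. Their ratios to parental ES were within 0.5 on the log2 scale for 4 factors when clone #1 was read, 6 for clone #9 and 7 for HoxA9-Ct ES. Over all genes detected in every line, 84.2%, 76.9% and 92.3% were within that range.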

How the data were processed

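The authors extracted the scanned images of the 4 arrays in Agilent Feature Extraction 10.10.1.1. Per the file headers, the scanner output that was deposited gives the processed spot intensity, after background subtraction and removal of the spatial trend, with flags for outliers and for signal well above background. All arrays lie on the same slide and come from the same scan, so neither could be fitted as a batch. The deposited series matrix holds the same intensities times 1 constant per array and was used as an alternative.

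Control spots were left out, log2 of the processed intensity was scaled by the 75th percentile of each array, and spots of a probe were averaged without outlier spots. A probe was well above background where most of its spots carried that flag. Groups were compared over 55562 probes by limma (version 3.58.1 under R 4.3.3, with lmFit and eBayes on 3 groups, Benjamini-Hochberg, 1 residual degree of freedom). The prior degrees of freedom were infinite, so that all probes shared a prior SD of 0.45. The fit was also run on simulated data with normal noise of the same SD for all probes and arrays. That run could not check the shared spread, which it assumes. Counts and medians were made in Python 3.11.15 with pandas 2.3.3. Shares over all genes used 1 probe per gene.

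The 53 genes and the comparison lists were chosen with earlier results of these data known. Named with their values on every array were factors called by limma, past 2-fold in both clones or in HoxA9-Ct ES, or newly detected in both clones, and the 5 brightest in parental ES. The Irx, Lhx5, Nkx2-5, Foxa1, Uncx and further factors were named after their values were seen. Alternatives were other scalings, background correction, filters, probe rules, fold thresholds and leaving out each clone or the last spot rows.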

Additional observations from a re-analysis of the deposited data

Results flagged for a closer look

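The fusion clones and HoxA9-Ct ES differed, each against the same parental array, for 2 of the 53 factors by the limma test of the difference itself. Pax6 was lower in the clones than in HoxA9-Ct ES by a log2 difference of -2.99 (SE 0.56, limma, Benjamini-Hochberg adjusted p = 2.70e-05) and was lower in both clones. Its measured fold is at least 2.10, because neither clone was above background. The Pax6 call was lost at least with quantile normalization, the mean over probes and dim probes left out. Dlx5 was higher in the clones than in HoxA9-Ct ES by 3.14 (SE 0.56, limma, Benjamini-Hochberg adjusted p = 7.13e-06), but it was detected only in clone #9. Against the detection limit of HoxA9-Ct ES the mean of the clones was at least 2.80-fold higher, and clone #9 alone at least 12.9-fold. This call was lost with trend and robust on, quantile normalization, the series matrix, normexp and dim probes left out, and without the last spot rows Dlx5 was not measured.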

How the results depend on the processing

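The counts of factors moved with the setting, and the mean of the clones against parental ES kept its sign in every alternative run for Alx4, Dlx5, En2, Foxl2, Lhx2, Nkx2-9, Pax6, Pax8, Sox1 and Tbx4. Among the factors detected in at least 1 line, Foxa1, Irx1, Nkx2-2 and Nkx2-5 had opposite signs in the clones, so that their direction depends on the clone. Main counts were, for limma, 1 higher and 3 lower in the clones than parental ES, 1 lower in HoxA9-Ct ES, and 1 higher and 1 lower in the clones than HoxA9-Ct ES. With normexp on the median pixels, chosen after the data were seen because no mean pixel column was present, these were 0, 1, 0, 0 and 1. Of all genes, 1.61% were called higher and 0.879% lower in the clones than in parental ES. The 1 factor called lower than parental ES was En2 (limma adjusted p = 0.000471), while Alx4, Pax6 and Tbx4 were not called. With that setting 0 factors were past 2-fold lower in both clones, 0 higher or lower in HoxA9-Ct ES, and the medians were 0.033 in clone #1 and -0.11 in clone #9. With quantile normalization all limma counts were 0, and no probe at all, Hox genes included, was called in any of the 3 comparisons. At an unadjusted p under 0.05, 5069 probes differed between the clones and parental ES, with 0 factors higher and 6 lower. With this normalization 0 factors were past 2-fold higher in HoxA9-Ct ES and the clone #9 median was -0.0092. With dim probes left out all limma counts were 0 as well, and again no probe was called in any comparison. With the series matrix the limma counts were 0, 1, 0, 0 and 1 (0.138% of all genes called higher and 0.0889% lower in the clones than parental ES). Without the last spot rows they were 0, 1, 0, 0 and 1, and 0 were past 2-fold lower in HoxA9-Ct ES. With trend and robust on, 0 were called higher than parental ES or HoxA9-Ct ES and 2 lower than HoxA9-Ct ES. With the floor, 3 were called higher than HoxA9-Ct ES (1.24% of all genes) and 2 were past 2-fold lower in both clones (0.790% of all genes). With the mean over probes, 0 were called lower than HoxA9-Ct ES and 0 were past 2-fold higher in HoxA9-Ct ES, as with the median of each array (0). With outlier spots kept, 0 were called lower in HoxA9-Ct ES. At 1.5-fold, 1 factor was higher in both clones, and for HoxA9-Ct ES it was 2. At 4-fold, 1 was lower in both clones, Pax6, which was detected in neither, and 0 were higher in HoxA9-Ct ES. Leaving out a clone gave 0 to 6 factors past 2-fold higher and 1 to 5 newly detected. The first 2 are the counts given above for each clone taken alone, beside the shares of all genes. Counts in this paragraph without such a share show only movement with the setting, and are not read as results about the factors. The low count with the last rows left out follows from Dlx5, Alx4 and Tbx4 not being measured, and the cause of the other shifts was not tested. The median of all genes in clone #9 moved from -0.13 to -0.02 with quantile normalization.

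No paired analysis was possible because the clones are the only replicated group and each other line has 1 array. Leaving out a clone leaves no residual degree of freedom, so limma could not be run there. What is limited by signal is the 34 factors below background in every line: small changes among them could not be measured.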
